A study of Mus musculus with 6 samples.

Results

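The transcripts of 10 genes of Notch signalling were followed in whole e15.5 mouse pancreases with and without deletion of *Jarid2* from the pancreatic epithelium. They comprised the receptors *Notch1* and *Notch2*, the ligands *Jag1* and *Dll1*, the Fringe enzymes *Mfng* and *Lfng*, the nuclear mediator *Rbpj* and the target genes *Hes1*, *Hey1* and *Heyl*. Every probe set annotated to a single gene among these 10 was taken, whatever its signal, which gave 19 of the 34958 probe sets that carry 1 gene symbol. The 10 genes stand among 18194 genes measured in this way. No member was left out by a filter on low values.

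RNA came from 3 *Jarid2* WT and 3 *Jarid2* Δpanc samples on the C57BL/6 strain, each titled as the pancreas of 1 numbered embryo. *Jarid2* WT is labelled wild-type, and whether these controls carried Cre or the floxed alleles is not stated in the sources used here. *Jarid2* Δpanc is the cross *Pdx1-Cre;Jarid2* flox/flox, in which Cre acts in the pancreatic epithelium in a mosaic manner, so that some epithelial cells and the mesenchyme, vessels, nerves and blood of the organ keep the gene. Total RNA (50 ng) was amplified through 2 cycles of cDNA synthesis and hybridized to 6 Affymetrix Mouse Genome 430 2.0 arrays. Jarid2 is a cofactor of Polycomb repressive complex PRC2, which methylates histone H3 at developmental genes.

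In Notch signalling, a Delta or Jagged ligand on one cell binds a Notch receptor on its neighbour, and proteases then release the receptor's intracellular domain. This domain enters the nucleus, joins the DNA-binding protein Rbpj and a Mastermind coactivator, and switches on repressors of the Hes and Hey families. In the embryonic pancreas Hes1 represses *Neurog3*, the gene that starts endocrine differentiation. Cells with active Notch therefore remain progenitors, while neighbours that express *Neurog3* carry the ligand Dll1.

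Signals are MAS5 intensities on a linear scale, which the depositors had scaled to the same trimmed mean of 150 on every array. Values under 16 were set to 16, a level called the floor below, and log2 was taken. Differences are log2 fold changes, *Jarid2* Δpanc minus *Jarid2* WT, and a probe set was called changed at an adjusted p under 0.05 from limma over all 34958 probe sets. The p-values set the difference between the groups against the spread of these 6 samples within their groups. In whole pancreases, fewer cells of a type and less RNA per cell cannot be told apart.

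The sex chromosome transcripts of the samples ran in part with genotype. *Xist*, transcribed from a silenced X chromosome, was at 24 and 12 in *Jarid2* WT replicates 1 and 2 and between 4197 and 4905 in the other 4 samples. The Y-linked *Eif2s3y* was at 560 and 506 in the former and at 13 or less in the latter. Every difference below is thus between a control group in which 2 of 3 samples were low in *Xist* and knockouts that were all high. *Jarid2* WT replicate 3 is the only control that matches the knockouts in both transcripts, and the part of this imbalance in the Notch values was not tested apart from fits with that sample as the only control. *Jarid2* WT replicate 3 alone held skeletal muscle RNA, with a summed signal of 10892 over 7 marker genes against 173 to 227 in the other 5 samples. The 3 *Jarid2* probe sets had log2 fold changes of 0.01 to 0.13. Their position relative to the deleted exon was not checked, so these arrays do not show the deletion. Summed markers of the pancreatic epithelium ranged from 16972 to 18852 over the controls and from 15506 to 17513 over the knockouts, so that the labelled tissue was present in every sample.

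Of the 19 Notch probe sets, 0 passed the adjusted threshold in limma, in either direction, and their adjusted p ranged from 0.577 to 1. The background is low, since 1 of all 34958 probe sets (0.00286%) passed. That probe set belongs to *Cp*, was chosen after its values were seen and has a mean signal of 17.5, near the floor. Its controls, at 7, 13 and 16, all stood at 16 once floored, and its knockouts all read 23. Neither group thus had any spread in the fit. At an unadjusted p under 0.05, 1 Notch probe set was counted, that of *Dll1*, where 8.27% of all probe sets were counted. Restricted to mean signals of at least 64, it was 1 of 16, where 1018 higher and 959 lower of 15872 were counted. The differences were small on both sides of 0, from -0.37 for *Mfng* to 0.43 for *Notch2*. Their median was 0.07, against 0.00 over all probe sets, and 11 of 19 lay above 0, against 48.9% of all probe sets. That share counts 3952 probe sets at exactly 0 as not above. Among probe sets with a mean signal of at least 64, 9 of 16 for Notch and 8687 of 15872 in all lay above 0. Their medians were 0.045 and 0.019.

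**Figure D1:**
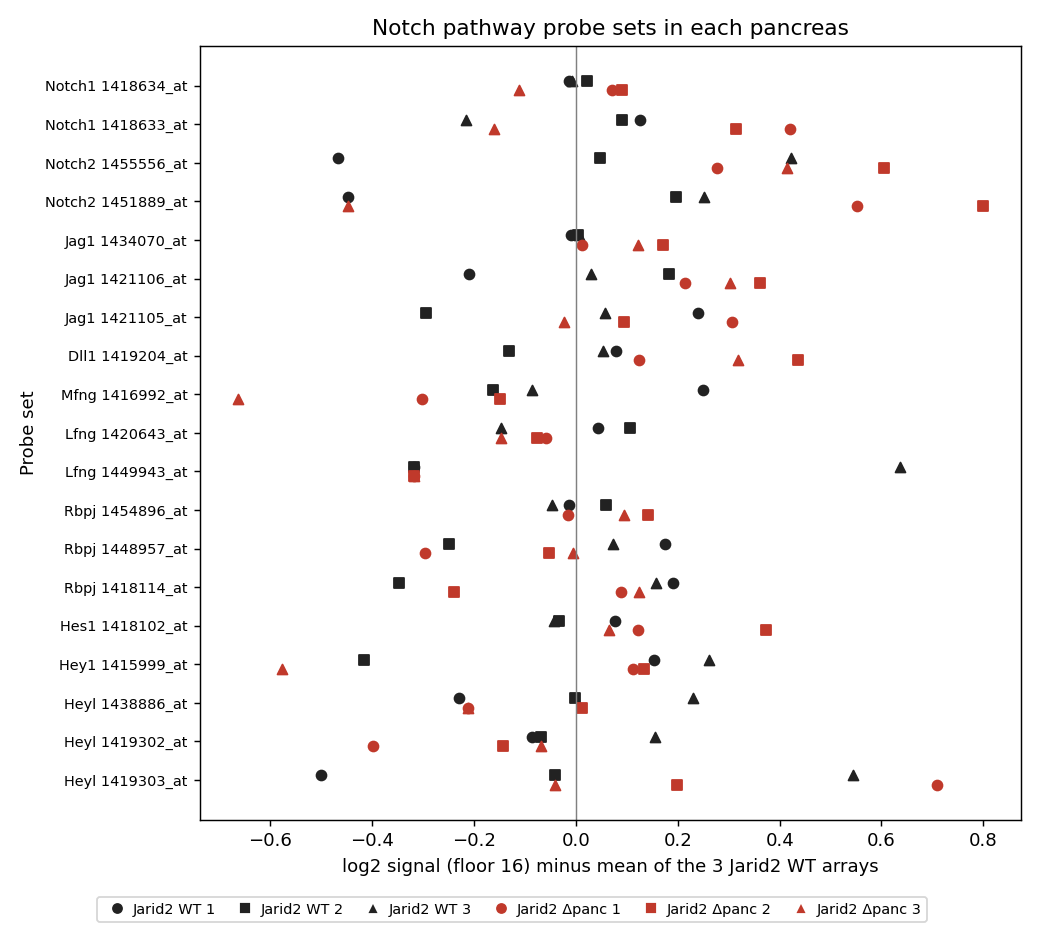
Signal of each Notch probe set in each of the 6 pancreases, as log2 of the floored value minus the mean of the 3 *Jarid2* WT arrays (horizontal axis, log2 units), with black symbols for *Jarid2* WT and red symbols for *Jarid2* Δpanc (circle, square and triangle for replicates 1, 2 and 3). The red symbols lie beyond all black ones for *Dll1* and 2 probe sets of *Jag1* and are mixed with them elsewhere.

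The ligands held the only Notch probe sets whose knockout samples lay beyond every control. *Dll1*, the Delta ligand of endocrine progenitors, had signals of 281, 243 and 276 in *Jarid2* WT and 290, 360 and 332 in *Jarid2* Δpanc. The groups did not overlap, although the lowest knockout was close to the highest control. Its difference was 0.29 on the log2 scale (standard error 0.11, 95% interval 0.01 to 0.57), or 1.23-fold, with an unadjusted p of 0.0437 and an adjusted p of 0.577 in limma. The unadjusted p was between 0.0654 and 0.115 without any one of *Jarid2* WT replicates 1, 2 or 3 or *Jarid2* Δpanc replicates 2 or 3, and was 0.0171 without *Jarid2* Δpanc replicate 1. The change stayed positive in all of these fits, at 0.22 to 0.38. With *Jarid2* WT replicate 3 as the only control it was 0.24.

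*Jag1*, a Jagged ligand of the embryonic pancreatic epithelium and its vessels, was measured by 3 probe sets. Its brightest probe set (1434070_at) read 930, 938 and 940 in *Jarid2* WT and 944, 1053 and 1018 in *Jarid2* Δpanc. All knockouts lay above all controls, by a margin of a few units for *Jarid2* Δpanc replicate 1, with a log2 fold change of 0.10 (adjusted p = 0.689 in limma, standard error 0.05). The probe set 1421106_at had signals of 166, 218 and 196 in *Jarid2* WT and 223, 247 and 237 in *Jarid2* Δpanc. Here too the groups were separate, at a log2 fold change of 0.29 (95% interval -0.01 to 0.60, adjusted p = 0.622 in limma). The probe set 1421105_at had 84, 58 and 74 in the controls and 88, 76 and 70 in the knockouts. Its groups overlapped, at 0.13 with a standard error of 0.17. With *Jarid2* WT replicate 3 as the only control, the 3 *Jag1* probe sets were at 0.095, 0.26 and 0.069, in this order.

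Knockouts above all controls were thus seen for 3 of the 19 Notch probe sets, against 6.12% of all probe sets. Knockouts below all controls were seen for 0 of 19, against 4.61%. Both shares include probe sets at the floor on all arrays, which cannot separate. At a mean signal of at least 64, knockouts lay above all controls for 3 of 16 Notch probe sets and 1374 of 15872 in all. They lay below for 0 of 16 and 1212 of 15872. The separation of the 3 ligand probe sets depended on the scaling. With each array centred on its own median, which moved the median difference of all probe sets by -0.05, 0 of the 19 lay above all controls and 3 lay below. Without *Jarid2* Δpanc replicate 3, 7 lay above.

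The receptors differed from probe set to probe set in how tightly they were measured. *Notch1*, a receptor of progenitors and endothelium, had signals of 799, 818 and 802 in *Jarid2* WT and 847, 859 and 746 in *Jarid2* Δpanc on its brightest probe set (1418634_at). The 3 controls lay within the range of the knockouts. Their difference was 0.02 in log2 (95% interval -0.15 to 0.18), so that a change beyond 1.13-fold up or 0.903-fold down lay outside the interval. The other probe set, 1418633_at, read 128, 125 and 101 against 157, 146 and 105, with a log2 fold change of 0.19 (standard error 0.20).

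*Notch2*, also a receptor of the pancreatic epithelium, had the highest log2 fold change of the members. Its brightest probe set (1455556_at) had signals of 210, 300 and 389 in *Jarid2* WT and 352, 442 and 387 in *Jarid2* Δpanc. The controls were spread widely, and *Jarid2* WT replicate 3 lay above *Jarid2* Δpanc replicates 1 and 3. A log2 fold change of 0.43 resulted, with a standard error of 0.26 and a 95% interval of -0.25 to 1.12 (adjusted p = 0.793 in limma). The value depended on which controls were used. Without *Jarid2* WT replicate 1 it was 0.20, and without *Jarid2* WT replicate 3 it was 0.64 (adjusted p = 0.534 in limma). With *Jarid2* WT replicate 3, the control that matches the knockouts in *Xist* and holds muscle RNA, as the only control, it was 0.01. The other probe set, 1451889_at, was dim, with 6, 25 and 26 against 32, 38 and 11, and a value under the floor in each group.

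All 4 receptor and all 4 ligand probe sets had log2 fold changes above 0, with medians of 0.25 and 0.21. Over all probe sets 48.9% lay above 0, and at mean signals of at least 64, 8687 of 15872 did. The receptor and ligand probe sets measure only *Notch1*, *Notch2*, *Jag1* and *Dll1* on the same arrays, so their signs are not independent. Of the receptor and ligand signs, that of *Notch1* 1418634_at turned without *Jarid2* Δpanc replicate 1 (-0.010) or 2 (-0.021) and with median centring (-0.036). That of *Jag1* 1421105_at turned without *Jarid2* WT replicate 2 (-0.022). The 95% interval of *Dll1* left out 0 and the other 7 included it.

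**Figure D2:**
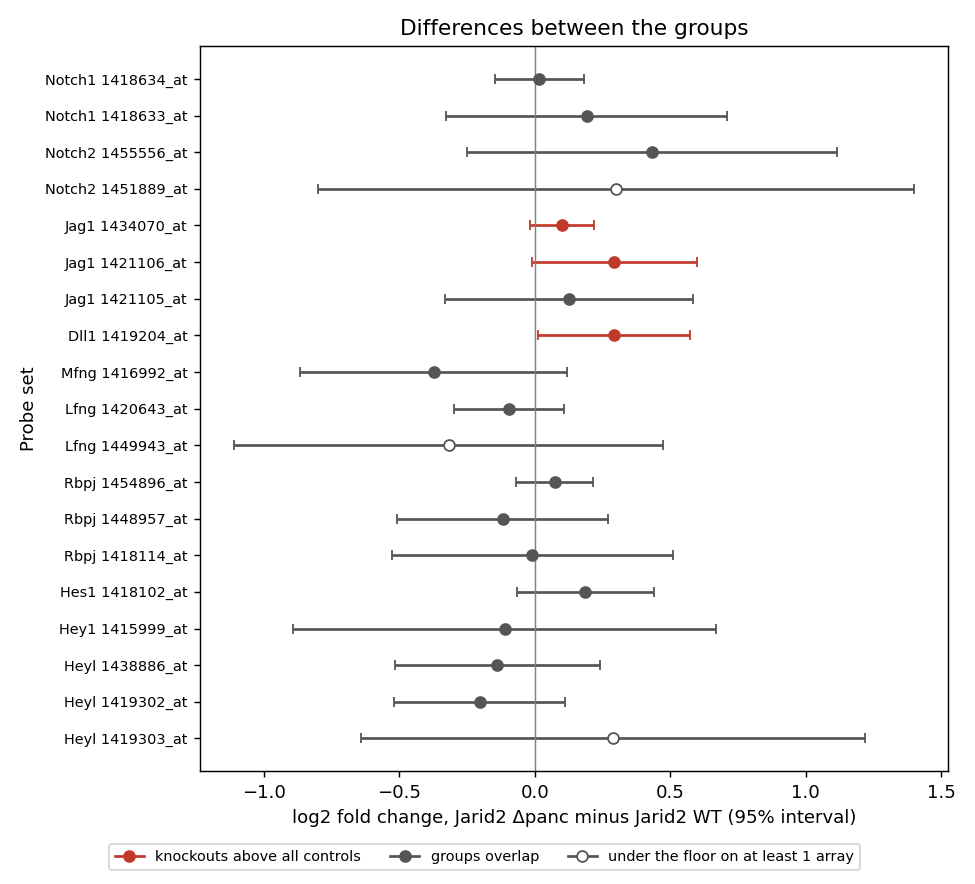
Log2 fold change of each Notch probe set, *Jarid2* Δpanc minus *Jarid2* WT, with its 95% interval from limma (horizontal axis, log2 units). Red marks the 3 probe sets whose knockouts lie above all controls, open circles mark the 3 probe sets under the floor on at least 1 array, and the interval of *Dll1* is the only one that leaves out 0.

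The Fringe enzymes are glycosyltransferases that extend the sugars on Notch receptors and so alter which ligands they respond to. *Mfng* (Manic fringe) is also known as a gene of *Neurog3*-expressing progenitors. Its signals were 145, 109 and 115 in *Jarid2* WT and 99, 110 and 77 in *Jarid2* Δpanc. The groups overlapped only through *Jarid2* WT replicate 2 and *Jarid2* Δpanc replicate 2, which were 1 unit apart. *Mfng* differed by -0.37 in log2 (95% interval -0.87 to 0.12, standard error 0.19, adjusted p = 0.722 in limma). The value ranged from -0.48 to -0.23 when single samples were left out, and was -0.29 with *Jarid2* WT replicate 3 as the only control. *Lfng* (Lunatic fringe) had signals of 89, 93 and 78 in the controls and 83, 82 and 78 in the knockouts on its brighter probe set, a log2 fold change of -0.09. Its dim probe set (1449943_at) read 2, 6 and 31 against 10, 2 and 11, so that only *Jarid2* WT replicate 3 was above the floor.

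Beside *Mfng*, the summed signal of 7 *Neurog3* progenitor markers was 2753 to 3102 over the controls and 2308 to 2797 over the knockouts, with 5 of 7 genes below 0. *Neurog3* itself had signals of 1575, 1469 and 1415 in the controls and 1116, 1456 and 1330 in the knockouts, a log2 fold change of -0.20 (adjusted p = 0.775 in limma). The summed signal of 5 islet hormone genes was 15589 to 18536 against 8642 to 9845, with 5 of 5 below all controls. Their part in the values of *Mfng* and *Dll1* was not tested.

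*Rbpj*, the DNA-binding partner of the Notch intracellular domain, had small log2 fold changes on all 3 of its probe sets, of which only the brightest was measured tightly. The brightest had signals of 388, 408 and 379 in *Jarid2* WT and 387, 432 and 418 in *Jarid2* Δpanc, with a log2 fold change of 0.07 (95% interval -0.07 to 0.22, adjusted p = 0.823 in limma). The probe set 1448957_at read 204, 152 and 190 against 147, 174 and 180, and 1418114_at read 132, 91 and 129 against 123, 98 and 126. Their log2 fold changes were -0.12 (95% interval -0.51 to 0.27) and -0.01 (95% interval -0.53 to 0.51), and the groups of each overlapped. Outside Notch signalling, Rbpj also binds DNA with Ptf1a in early pancreatic progenitors.

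The promoter sequences that bear on Notch input are those that hold the core letters bound by Rbpj, TGGGAA on either strand. RefSeq promoter windows, from 250 bases before to 50 bases after a gene's start, were matched for 6 of the 10 genes (*Notch1*, *Notch2*, *Jag1*, *Dll1*, *Rbpj* and *Lfng*), in 8 windows. The letters stood in 3 of these 8 windows, those of *Rbpj* and *Lfng*, against 25.6% of 32851 windows over all genes. Each site is printed with 12 bases on either side, read on the plus strand of GRCm38.p6, with the 6 letters in capitals (TTCCCA is the same motif on the other strand).
*Rbpj*, chr5:53590185-53590214, 149 bases before the start: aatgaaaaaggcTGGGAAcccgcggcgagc
*Rbpj*, chr5:53590269-53590298, 65 bases before the start: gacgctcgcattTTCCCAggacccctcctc
*Lfng*, chr5:140607194-140607223, 135 bases before the start: ccagctgggtggTTCCCAgccccttgtccg
*Lfng*, chr5:140607221-140607250, 108 bases before the start: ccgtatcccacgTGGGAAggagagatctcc
Both windows of *Rbpj* hold the site nearer to the start, since *Rbpj* has starts that lie close together. That site lies 65 bases before the first of these starts and 205 bases before the second. It is thus counted in 2 of the 3 windows. The letters CACGTG, an E-box bound by Hey proteins among others, were found in 1 of the 8 windows, that of *Lfng*, against 7.15% of all windows. There they overlap the second TGGGAA, with which they share a T and a G. A match of letters is not a measured binding site. The levels of the 2 genes with sites, *Rbpj* and *Lfng*, are those given above, and neither passed the threshold.

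*Hes1*, the repressor through which Notch holds back *Neurog3*, had signals of 276, 256 and 254 in *Jarid2* WT and 285, 339 and 274 in *Jarid2* Δpanc. The groups overlapped by 1 pair, the highest control and *Jarid2* Δpanc replicate 3. The means were 262 ± 12.2 and 299 ± 34.8 (SD, n = 3 each), or 1.14-fold. The log2 fold change of 0.19 had a standard error of 0.10 and a 95% interval of -0.07 to 0.44 (adjusted p = 0.732 in limma). *Jarid2* Δpanc replicate 2 carried much of it, since the value without that sample was 0.09. With *Jarid2* WT replicate 3 as the only control it was 0.23.

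*Hey1*, a repressor of the related Hey family that is prominent in endothelium, had signals of 141, 95 and 152 in *Jarid2* WT and 137, 139 and 85 in *Jarid2* Δpanc. Each group had 1 low sample, and the sign of the log2 fold change, -0.11 (standard error 0.29), turned to 0.02 without *Jarid2* WT replicate 3 and to 0.12 without *Jarid2* Δpanc replicate 3. *Heyl*, the family member of vascular smooth muscle, had signals of 88, 103 and 121 in the controls and 89, 104 and 89 in the knockouts on its brightest probe set. The probe set 1419302_at read 77, 78 and 91 against 62, 74 and 78. Their log2 fold changes were -0.14 and -0.20, and the groups of each overlapped. The former was -0.022 without *Jarid2* WT replicate 3 and -0.25 without *Jarid2* WT replicate 1, and the latter was -0.11 without *Jarid2* Δpanc replicate 1 and -0.13 without *Jarid2* WT replicate 3. The dim probe set 1419303_at, with 8, 22 and 33 against 37, 26 and 22, had the opposite sign, at 0.29.

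Because *Notch1*, *Jag1*, *Hey1* and *Heyl* are also expressed in vessels, vessel markers are given beside them. The summed signal of 11 endothelial markers was 2144 to 2250 over the controls and 2216 to 2486 over the knockouts. Of these 11 genes, led by *Egfl7* and *Esam*, 9 had log2 fold changes above 0 (median 0.15) and 0 passed in limma, at the adjusted or the unadjusted threshold. Pericyte and smooth muscle markers, led by *Acta2* and *Pdgfrb*, summed to 2885 to 3787 against 3172 to 3774. Mesenchymal markers, led by *Col3a1* and *Vim*, summed to 17078 to 19539 against 18580 to 20859. Their part in the values of these Notch genes was not tested.

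*Jarid2* Δpanc replicate 2 had the highest signal of all 6 arrays on 8 of the 19 Notch probe sets, against 15.3% of all probe sets. They include probe sets of *Notch1*, *Notch2*, *Jag1*, *Dll1*, *Rbpj* and *Hes1*. At a mean signal of at least 64, 7 of 16 Notch probe sets and 2924 of 15872 in all were highest in *Jarid2* Δpanc replicate 2. Duct and trunk markers (4 measured of 6 listed), led by *Muc1* and *Krt19*, had a summed signal of 1082 there, 1015 and 1156 in *Jarid2* Δpanc replicates 1 and 3, and 1073 to 1119 in *Jarid2* WT. Of these 4, *Sox9* was highest in *Jarid2* Δpanc replicate 2. Their part in the Notch values of this sample was not tested.

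The members also differed in which other gene they followed from sample to sample. Likeness was measured over the 6 samples as the root mean square difference of log2 values, each centred on the gene's own mean, among 92 genes of the Notch and cell type marker lists. It was taken for members whose brightest probe set spanned more than 0.5 log2 units. *Dll1* was nearest to *Ep300*, a histone acetyltransferase, at 0.103 log2 units. *Mfng* was nearest to *Bhlha15*, an acinar transcription factor, at 0.156, with the islet hormone gene *Ghrl* almost as near at 0.158. *Hey1* was nearest to *Neurl1a*, a ubiquitin ligase of Notch ligands, at 0.144. *Notch2* was nearest to *Fabp7*, a glial and neural progenitor gene, at 0.134. Genes with small differences between samples lie near to one another by this measure, and no test is attached to it.

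The smallest distance of any member, 0.0417 log2 units, was between *Hes1* and *Sox9*. Other members outside the rule had distances almost as small, with *Lfng* and *Tle1* at 0.0442 and *Jag1* and *Ep300* at 0.0514. The pair of *Hes1* and *Sox9* also lies outside the rule, because *Hes1* spanned 0.42 log2 units, and was chosen after its values were seen. *Sox9*, the transcription factor of bipotent trunk progenitors, had signals of 275, 233 and 234 in *Jarid2* WT and 268, 320 and 262 in *Jarid2* Δpanc. As for *Hes1*, the highest sample was *Jarid2* Δpanc replicate 2 and *Jarid2* WT replicate 1 was the highest control. *Sox9* is 1 of the 4 measured trunk and duct markers, of which the other 3 had log2 fold changes below 0. *Sox9* itself differed by 0.19 in log2 (adjusted p = 0.783 in limma, standard error 0.11). *Sox9* also came after *Ep300* for *Dll1*, at 0.106.

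**Figure D3:**
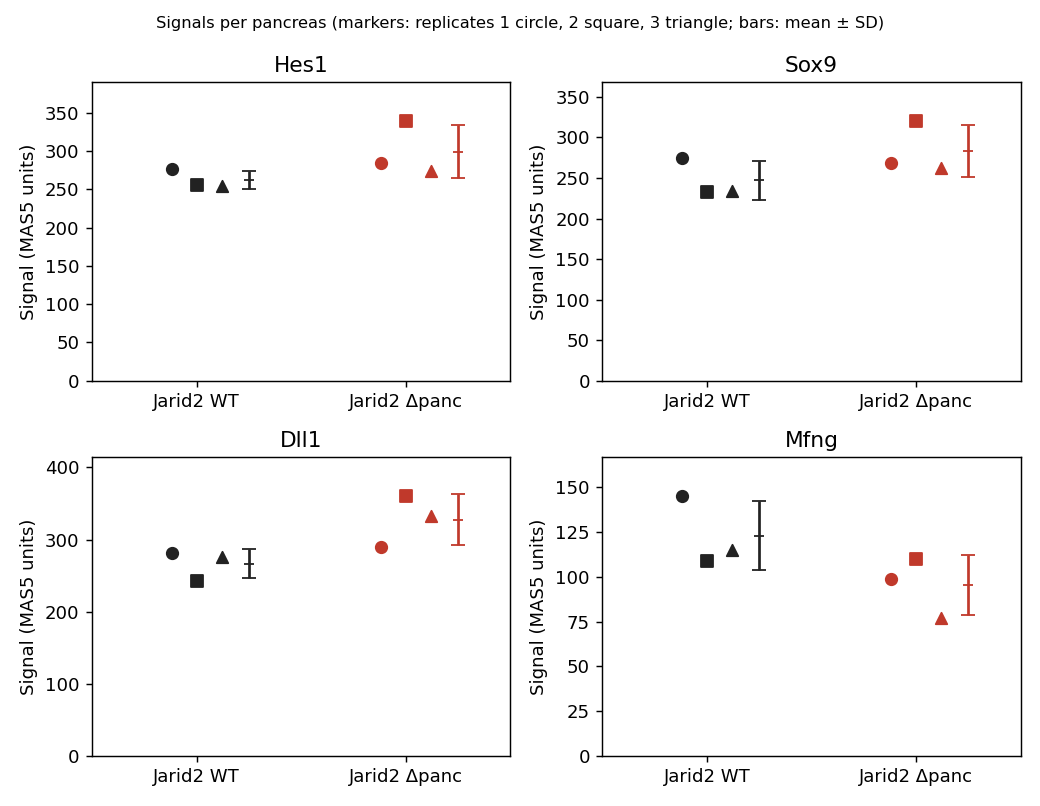
Signals of *Hes1*, *Sox9*, *Dll1* and *Mfng* in each pancreas (vertical axis, MAS5 units from 0; circle, square and triangle for replicates 1, 2 and 3), with bars for the mean and SD of 3 samples. *Hes1* and *Sox9* peak in the same knockout sample, *Dll1* knockouts lie above all controls, and *Mfng* overlaps by 1 unit.

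The rest of the pathway was read from 52 listed genes, of which 48 were measured. By the brightest probe set of each gene, 0 of 48 passed the adjusted threshold in limma, as did 0% of all genes. At an unadjusted p under 0.05, 3 were higher and 4 were lower in *Jarid2* Δpanc, against 4.28% and 4.38% of all genes. The 3 became 5 without *Jarid2* WT replicate 1 and 1 without *Jarid2* WT replicate 3 or *Jarid2* Δpanc replicate 2, and the 4 became 2 without *Jarid2* Δpanc replicate 3. Knockouts lay above all controls for 3 and below for 5, against 5.71% and 5.66% of all genes. The median log2 fold change was 0.03.

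Among nuclear partners, *Rbpjl*, the acinar relative of *Rbpj* that replaces it beside Ptf1a as acinar cells mature, had signals of 498, 515 and 455 in *Jarid2* WT and 322, 396 and 385 in *Jarid2* Δpanc. All knockouts lay below all controls. *Rbpjl* differed by -0.42 in log2 (adjusted p = 0.400 in limma, standard error 0.10), where *Rbpj* differed by 0.07. The other *Rbpjl* probe set was under the floor on all arrays. Summed tip and acinar markers, led by *Cpa1* and *Cela1*, ran from 22932 to 25645 over the controls and 20287 to 24282 over the knockouts, with 5 of 6 below 0, and their part in the value of *Rbpjl* was not tested. *Tle4*, a Groucho corepressor recruited by Hes proteins, had signals of 79, 128 and 100 against 161, 170 and 161. The groups were separate, at 0.71 in log2 (adjusted p = 0.441 in limma, standard error 0.19). Its other probe sets were near or under the floor, at 0.17 and 0.06.

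Among the proteases that release the intracellular domain, 3 subunits of γ-secretase were counted, and they did not share a direction. *Aph1a* had 536, 594 and 651 in *Jarid2* WT and 472, 483 and 482 in *Jarid2* Δpanc, with a log2 fold change of -0.31 (adjusted p = 0.414 in limma), whereas its other probe sets gave 0.01 and 0.15. *Psenen* had 1920, 2310 and 2018 against 1811, 1834 and 1724, a log2 fold change of -0.21 (adjusted p = 0.590 in limma). *Ncstn* (nicastrin) had 61, 46 and 55 against 72, 73 and 64, a log2 fold change of 0.37 (adjusted p = 0.545 in limma), and -0.37 on its dimmer probe set.

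The last pair with an unadjusted p under 0.05 were dim. *Dll4*, the Delta ligand of arterial endothelium, had 58, 52 and 47 in *Jarid2* WT and 43, 45 and 40 in *Jarid2* Δpanc, at -0.29, while its dimmer probe set had the opposite sign, at 0.48. *Hes5*, a Notch target, had 20, 19 and 14 against 30, 23 and 24, close to the floor, at 0.48, and its other probe set was under the floor on all arrays. In the roles without such a gene, the brightest were *Notch3*, *Pofut1*, which adds the fucose that Fringe enzymes extend, and *Mib1*, the ubiquitin ligase that drives ligand endocytosis. *Notch3*, the receptor of vascular smooth muscle, read 257, 287 and 299 against 321, 288 and 321, at 0.14. *Pofut1* read 283, 304 and 329 against 287, 331 and 363, at 0.09. Its dim probe set (1450137_at), chosen after its values were seen, read 45, 53 and 42 against 30, 21 and 26, with all knockouts below all controls, at -0.87 (unadjusted p = 0.00468 and adjusted p = 0.314 in limma), and the third probe set was at 0.17. *Mib1* read 832, 843 and 811 against 679, 804 and 719, with all knockouts below all controls, at -0.18 (adjusted p = 0.622 in limma). Its dimmer probe sets were at 0.60 and 0.16.

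**Figure D4:**
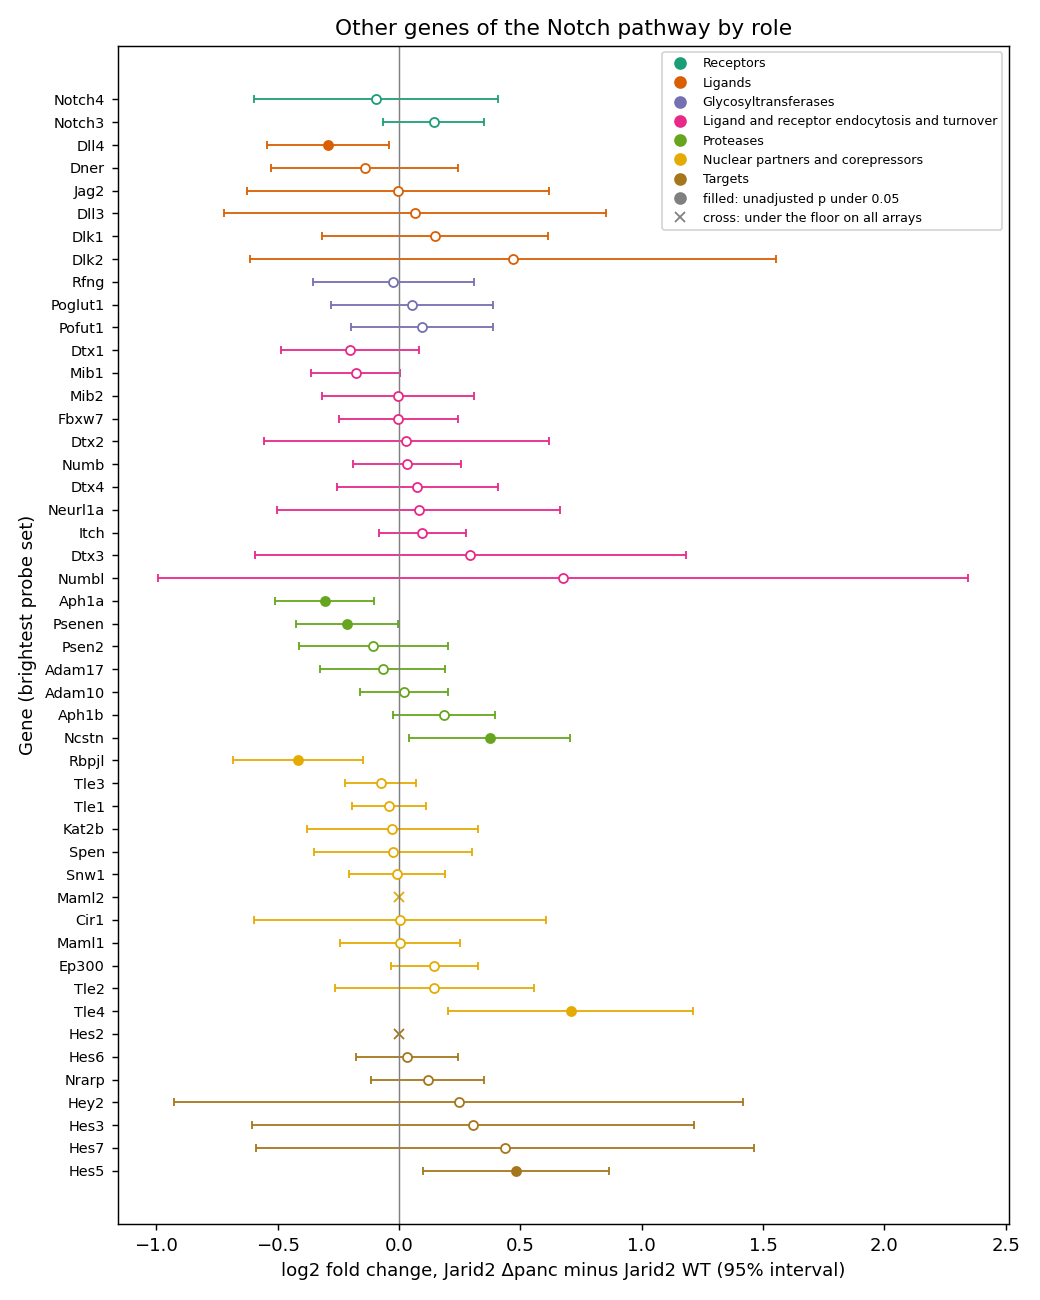
Log2 fold change of the 48 other measured Notch pathway genes, *Jarid2* Δpanc minus *Jarid2* WT, with 95% intervals from limma (horizontal axis, log2 units), 1 row per gene by its brightest probe set and coloured by role. Filled circles mark the 7 genes with an unadjusted p under 0.05, 3 higher and 4 lower, and crosses mark *Maml2* and *Hes2*, which were under the floor on all arrays.

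The precision set how small a difference could be seen. The width of the 95% interval ran from 0.24 log2 units for the brightest *Jag1* probe set to 2.20 for the dim *Notch2* probe set. Among the 16 Notch probe sets with a mean signal of at least 64, the median residual SD was 0.171 log2 units, against 0.147 over all probe sets of that brightness. The 3 Notch probe sets under 64 were each under the floor on at least 1 array.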

How the data were processed

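Transcripts were measured on 6 arrays, 3 per genotype. The submitters' notes name MAS5 (version not given) for the deposited intensity values, which are linear whole numbers with a trimmed mean of 150 on each of the 6 arrays, as checked on the 45101 probe sets. The study's methods name RMA and LIMMA, and RMA needs scanner files, which were not used here. A description label names islets in glucose, and the other labels and the methods, which name embryonic pancreas, were followed. No detection calls, scan dates or batches were at hand.

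The members, gene lists and rules were chosen with earlier results of these data known. Of 35890 annotated probe sets, 34958 had 1 gene symbol, while 932 with several symbols and 9211 without a name were left out of the main comparison. Values were floored at 16 and log2 was taken. Genotypes were contrasted by limma (version 3.58.1, R version 4.3.3, with lmFit, eBayes, 4 residual and 0.551 prior degrees of freedom) with Benjamini-Hochberg adjustment over all 34958 probe sets at a threshold of 0.05. On simulated arrays with independent noise, the fit was checked for the size of its log2 fold changes, and no requirement was set on its calls. Each array had 26.5% to 29.0% of its probe sets under the floor, and the number of arrays limits the precision. Lists were described by the brightest probe set of each gene. Pathway genes were named at an unadjusted p under 0.05 or, in a role without one, for the highest mean signal, and marker lists by their brightest pair of genes. The alternatives left out each sample, added the replicate number as a block, used *Jarid2* WT replicate 3 as the only control, and changed normalization, floor, filter, features, variance model and threshold.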

Additional observations from a re-analysis of the deposited data

How the results depend on the processing

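Over 349 pairs of a Notch log2 fold change and an alternative, 332 kept their sign and side of the adjusted threshold, 11 had the opposite sign, 5 were at 0 because all samples used were at the floor, and 1 passed. The 1 that passed was the dim *Lfng* probe set 1449943_at with *Jarid2* WT replicate 3 as the only control (-0.95, adjusted p = 0.00818 in limma), where all 3 knockouts were at the floor and the lone control was assumed to vary like the knockouts. That setting gave 577 lower and 46 higher calls over all probe sets, 1 lower call among the Notch probe sets and 1 in the pathway list. Among the Notch probe sets it gave 0 higher and 1 lower at an unadjusted p under 0.05, 6 above and 7 below all controls, -0.25 for *Heyl* 1419303_at and 0.054 for *Lfng* 1420643_at. Calls over all probe sets (1 higher and 0 lower as reported) were 3 higher and 2 lower with quantile normalization, 2 higher and 1 lower with a floor of 32, 3 higher at an adjusted p under 0.1, 0 higher and 3 lower with mean signals under 64 left out, and 1 lower with all probe sets of the table. They were 0 higher with arrays centred on the median, floors of 1 and 64, probe sets at the floor on all arrays left out, or 1 probe set per gene. Without single samples they were 2 to 13 higher and 0 to 15 lower. The Notch count with an unadjusted p under 0.05 and a higher signal was 2 with mean signals under 64 left out, and 0 with median centring, floors of 1 and 64, or probe sets at the floor on all arrays left out. Notch probe sets below all controls were 2 with quantile normalization and 3 with median centring, where 0 were above and *Notch1* 1418634_at was at -0.036. Without single samples, 0 to 2 Notch probe sets were higher and 0 to 1 lower at an unadjusted p under 0.05, 3 to 7 were above all controls (7 without *Jarid2* Δpanc replicate 3) and 0 to 4 below (4 without *Jarid2* WT replicate 2), and 0 passed. The log2 fold change then ranged from -0.18 to 0.11 for *Rbpj* 1418114_at, -0.022 to 0.25 for *Jag1* 1421105_at, -0.32 to 0.12 for *Hey1* and -0.021 to 0.081 for *Notch1* 1418634_at. Over all probe sets, deviations of same-numbered samples correlated at -0.000703, -0.0154 and -0.0156, which cannot decide whether such samples shared a litter or handling. The replicate block gave 0 higher calls over all probe sets and 0 among the Notch probe sets. With it, the Notch count at an unadjusted p under 0.05 in limma stayed at 1. That probe set was *Jag1* 1421106_at (unadjusted p = 0.0281 in limma), while *Dll1* had 0.133. Apart from the values whose construction is given, the cause was not tested.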
